A study of Mus musculus with 15 samples.

Results

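The genes described here are Arntl, Clock, Npas2, Nfil3 and Rora, 5 transcription factor genes of the circadian clock, followed in the hearts of C57BL/6 mice after chronic methamphetamine. They were chosen by name. Every probe was taken whose RefSeq accession maps to 1 of the 5 symbols or to an older alias (Arntl is also known as Bmal1), which gave 9 of the 41174 probes on the array and 5 of the 18350 genes that could be named. RNA from whole heart was labelled with Cy3 and hybridised, 1 mouse to an array, to a 1-colour Agilent mouse array, on which the brightness of a spot reports how much labelled RNA the probe bound. The 15 hearts fell into 4 groups, male meth (n = 4), male PBS (n = 4), female meth (n = 4) and female PBS (n = 3). Meth mice had received weekly intraperitoneal methamphetamine hydrochloride, raised by 2 mg each week to 40 mg/kg at week 20, and PBS mice had received saline on the same schedule for 5 months. The mice were young adults at the start, and the labels name no mutation or transgene. Males came from a pair of trials, with 2 meth and 2 PBS hearts in each, and all females belong to trial 1 by their titles. Some meth-treated males died before the end by the study's account, so that the male meth group holds survivors. The mice lived under a light and dark cycle, and the hour at which hearts were taken is not given in the sources used here.

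In the mammalian clock, the protein of Arntl pairs with CLOCK, or with its relative NPAS2, and the pair binds E-box elements to switch on the period and cryptochrome genes, whose proteins then repress the pair. A further loop acts on Arntl itself: ROR proteins, among them the product of Rora, activate it through response elements that the REV-ERB repressors also bind. NFIL3 represses genes with a D-box, the element through which DBP, TEF and HLF activate. In many tissues Nfil3 shares the phase of Arntl without being an activator. In heart muscle this clock runs in the cardiomyocytes themselves and is known for its hold on metabolism and electrical activity.

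Promoter windows are shown because these 5 genes are linked by the elements through which clock proteins act. They run from 250 bases before to 50 bases after a RefSeq transcription start in GRCm38.p6, read 5′ to 3′ on the strand of the gene, and positions count from 0 at the first transcribed base. Searched on both strands were the E-box CACGTG, the variant CACGTT, the ROR half-site AGGTCA, the longer ROR response element consensus, which contains that half-site, and the D-box TTANGNAA. Capitals mark every match. In the Arntl window (chr7:113207261-113207560, plus strand) a D-box match lies at positions 13 to 20 and a match to the full ROR response element at 26 to 36. The Clock window (chr5:76303453-76303752, minus strand) holds the half-site at -119 to -114, and the Nfil3 window (chr13:52980990-52981289, minus strand) at -12 to -7, both on the strand opposite to the gene.
Arntl: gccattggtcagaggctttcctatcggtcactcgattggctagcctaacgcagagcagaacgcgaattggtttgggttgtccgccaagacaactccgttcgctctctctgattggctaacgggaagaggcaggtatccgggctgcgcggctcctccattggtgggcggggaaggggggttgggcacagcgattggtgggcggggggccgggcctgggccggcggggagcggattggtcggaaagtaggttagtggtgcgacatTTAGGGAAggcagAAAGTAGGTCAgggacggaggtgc
Clock: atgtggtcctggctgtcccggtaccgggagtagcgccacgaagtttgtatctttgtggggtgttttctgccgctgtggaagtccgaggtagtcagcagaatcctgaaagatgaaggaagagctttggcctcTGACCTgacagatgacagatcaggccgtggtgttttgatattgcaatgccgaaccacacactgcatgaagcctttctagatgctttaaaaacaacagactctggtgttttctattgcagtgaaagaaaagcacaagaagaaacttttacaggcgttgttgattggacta
Nfil3: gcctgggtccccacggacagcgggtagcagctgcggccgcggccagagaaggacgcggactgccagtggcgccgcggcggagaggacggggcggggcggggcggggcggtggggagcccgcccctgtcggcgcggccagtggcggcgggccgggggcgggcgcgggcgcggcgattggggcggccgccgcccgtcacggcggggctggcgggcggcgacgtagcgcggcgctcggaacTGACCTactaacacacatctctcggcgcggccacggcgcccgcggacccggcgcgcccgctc
Of 32851 windows of this length in the table, 0.384% held the full ROR response element, 16.3% the half-site, 11.5% the D-box, 7.15% CACGTG and 4.68% CACGTT. The windows of Npas2 and Rora, and the other windows of Arntl and Clock, held none of these letters. These matches describe the sequence only.

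Arntl was the member that changed most. Values are log2 signals after subtraction of the array's own 75th percentile of signal, so that 0 is a probe as bright as that percentile, and Arntl is read by a single probe (A_52_P267651, NM_007489). In male PBS hearts it stood at 0.15 and 0.25 in trial 1 and at 1.08 and 1.22 in trial 2. In male meth hearts it stood at -1.06 and -1.46 in trial 1 and at -2.14 and -2.22 in trial 2. Every male meth heart lay below every male PBS heart, and within each treatment the trials kept apart. Female PBS hearts read 0.60, 0.66 and 0.75, the tightest of the 4 groups. Female meth hearts read -1.65, -0.72, -0.63 and -1.57. All 4 lay below all 3 controls, in a lower and a higher pair.

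The group means of Arntl were 0.68 ± 0.55 (SD, n = 4) in male PBS, 0.67 ± 0.08 (SD, n = 3) in female PBS, -1.14 ± 0.54 (SD, n = 4) in female meth and -1.72 ± 0.56 (SD, n = 4) in male meth hearts. The order therefore ran from male PBS through female PBS and female meth to male meth. Both neighbouring pairs within a treatment overlapped, and the step between PBS and meth did not. The plain difference had an exact two-sided permutation p of 0.0286 in each sex, which is the smallest that 70 regroupings of 4 against 4 or 35 regroupings of 4 against 3 allow.

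In the limma fit over all 28358 tested probes, the male value of Arntl fell by 2.40 on the log2 scale (SE 0.34, 95% interval -3.13 to -1.67), a 5.27-fold lower signal, with an adjusted p of 0.00521. Ordered from the most negative log2 fold change, it was number 2 of all tested probes in males. This call was lost with male arrays alone (adjusted p = 0.0535), with the replicate number as a block (adjusted p = 0.0581), with trial 1 arrays alone (-1.46, adjusted p = 0.194) and with both forms of the methods' t-test. In females it fell by 1.81 (SE 0.36, 95% interval -2.60 to -1.02), a 3.51-fold lower signal, with an adjusted p of 0.0444, and was number 19 in that order. In the study's own array values at 5 months, Arntl was lower after meth in both sexes. In its RT-PCR, Arntl was lower after meth in males but not in females. The female call lay close to the threshold of 0.05. It was lost in 13 of 15 fits that left out 1 array, those without any one of the 7 female arrays among them, and was kept without male meth or male PBS replicate 1 of trial 1, while the log2 fold change stayed between -1.98 and -1.64. Female arrays of the same replicate number share a slide, and with that number as a block the female value was -1.67 (adjusted p = 0.175). Female meth replicate 4 has no partner and adds nothing to that blocked value. Averaged over the sexes, Arntl fell by 2.10 (SE 0.25, adjusted p = 0.00102), a 4.30-fold lower signal, and that call held in all 29 alternatives run.

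Clock, which encodes the partner of the Arntl protein, was lower after meth by a smaller step. Its brightest probe (A_52_P334670) read 0.64 and 0.61 in male PBS hearts of trial 1 and 0.89 and 0.96 in those of trial 2. Male meth hearts read 0.34, 0.21, 0.19 and 0.35. No male meth heart reached any male PBS heart. Female PBS hearts read 0.83, 0.70 and 0.43, and female meth hearts 0.37, 0.52, 0.22 and 0.09. Here the groups overlapped, since female meth replicate 2 exceeded female PBS replicate 3. The means ran from 0.77 ± 0.18 (SD, n = 4) in male PBS and 0.65 ± 0.20 (SD, n = 3) in female PBS to 0.30 ± 0.19 (SD, n = 4) in female meth and 0.27 ± 0.08 (SD, n = 4) in male meth hearts, and neighbours in this order overlapped.

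For this probe the log2 fold change was -0.50 in males (SE 0.11, adjusted p = 0.0605 with limma) and -0.35 in females (SE 0.12, adjusted p = 0.265), and neither passed the threshold. The male value, itself unmoved, passed when female meth replicate 2 (adjusted p = 0.0483) or female PBS replicate 3 (adjusted p = 0.0482) was left out of the shared fit. Averaged over the sexes, Clock fell by 0.43 (SE 0.08, 95% interval -0.61 to -0.24, adjusted p = 0.0197), a 1.34-fold lower signal. This call was lost when female PBS replicate 1 was left out (-0.38, adjusted p = 0.0579), when female PBS replicate 2 was (-0.41, adjusted p = 0.0578) and when male PBS replicate 2 of trial 2 was (-0.40, adjusted p = 0.0517). It was also lost with trial 1 arrays alone, with normexp background correction and with a shift by the median.

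A pair of dimmer probes also reads Clock. Probe A_52_P161365 gave -0.70 in males (SE 0.17) and -0.51 in females (SE 0.18), and over both sexes it fell by 0.60 (adjusted p = 0.0240). Probe A_52_P334677 gave -0.58 in males (SE 0.14) and -0.26 in females (SE 0.15), and over both sexes -0.42 (adjusted p = 0.0572). All male meth hearts were below all male PBS hearts on each of them, and the female groups overlapped on each. Over the 15 hearts the brightest probe followed A_52_P161365 closely (Pearson r = 0.92) and A_52_P334677 less so (r = 0.47). After the mean of each of the 4 groups was taken out, these values were 0.81 and -0.19. Probe A_52_P161365 thus shared the differences among hearts of a group with the brightest probe, and A_52_P334677 did not.

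Npas2, whose product can take the place of CLOCK, was not measurable on these arrays. Its only probe (A_52_P534749) was not well above background on 14 of 15 arrays and exceeded it in female PBS replicate 3 alone. The normalized log2 signals ran from -7.12 to -5.49 in male meth, from -5.26 to -4.79 in male PBS, from -6.91 to -5.03 in female meth and from -5.56 to -4.47 in female PBS hearts. It was not tested, and no fold is given.

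Nfil3, the D-box repressor, had lower mean signals after meth, with a wide spread among controls. Its brighter probe (A_52_P500027) read 1.17 and 1.09 in male PBS hearts of trial 1 and 1.88 and 2.15 in those of trial 2. Male meth hearts read 0.65, 0.82, 0.66 and 0.90. Every male meth heart was below every male PBS heart, and trial 2 controls stood well above those of trial 1. Female PBS hearts read 1.42, 1.65 and 0.72, and female meth hearts 1.00, 1.29, 0.66 and 0.44. Female PBS replicate 3 fell inside the range of the female meth hearts. The means were 1.57 ± 0.52 (SD, n = 4) in male PBS, 1.27 ± 0.49 (SD, n = 3) in female PBS, 0.85 ± 0.37 (SD, n = 4) in female meth and 0.76 ± 0.12 (SD, n = 4) in male meth hearts, and neighbours in this order overlapped.

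The log2 fold change of this probe was -0.81 in males (SE 0.24, adjusted p = 0.157), -0.42 in females (SE 0.26, adjusted p = 0.617) and -0.62 over both sexes (SE 0.17, adjusted p = 0.0907), and none passed the threshold. Without female PBS replicate 3 the value over both sexes was -0.75, with an adjusted p of 0.0349. The second probe (A_51_P111492) did pass in males, where it fell by 0.74 (SE 0.14, adjusted p = 0.0262), and over both sexes, where it fell by 0.50 (SE 0.10, adjusted p = 0.0236). In females it gave -0.26 (SE 0.15, adjusted p = 0.582). Its male groups overlapped across trials, since trial 2 meth hearts (0.17 and 0.21) met trial 1 PBS hearts (0.18 and 0.23), whereas trial 1 meth hearts read -0.24 and -0.11 and trial 2 PBS hearts 1.21 and 1.35.

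Rora, the ROR activator of Arntl, differed little between treatments. The brighter probe (A_52_P652442) read 0.12 and 0.28 in male PBS hearts of trial 1, 0.27 and 0.35 in male PBS hearts of trial 2, 0.25 and 0.21 in male meth hearts of trial 1 and 0.55 and 0.52 in those of trial 2. Female PBS hearts read 0.16, 0.22 and 0.07, and female meth hearts 0.23, 0.41, 0.22 and 0.12. Meth and PBS overlapped in both sexes, and the highest readings were those of the trial 2 male meth hearts. From the highest mean to the lowest the order was male meth (0.38 ± 0.18, SD, n = 4), male PBS (0.25 ± 0.10, SD, n = 4), female meth (0.24 ± 0.12, SD, n = 4) and female PBS (0.15 ± 0.07, SD, n = 3), and all neighbours overlapped. The log2 fold change was 0.13 in males (95% interval -0.04 to 0.30, adjusted p = 0.535), 0.09 in females (95% interval -0.09 to 0.27, adjusted p = 0.784) and 0.11 over both sexes (adjusted p = 0.407). The other probe (A_51_P477779) gave 0.12 in males and 0.19 in females, with adjusted p of 0.562 and 0.446, and over both sexes 0.16 (95% interval 0.03 to 0.28, unadjusted p = 0.0198 and adjusted p = 0.208 with limma).

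**Figure D1:**
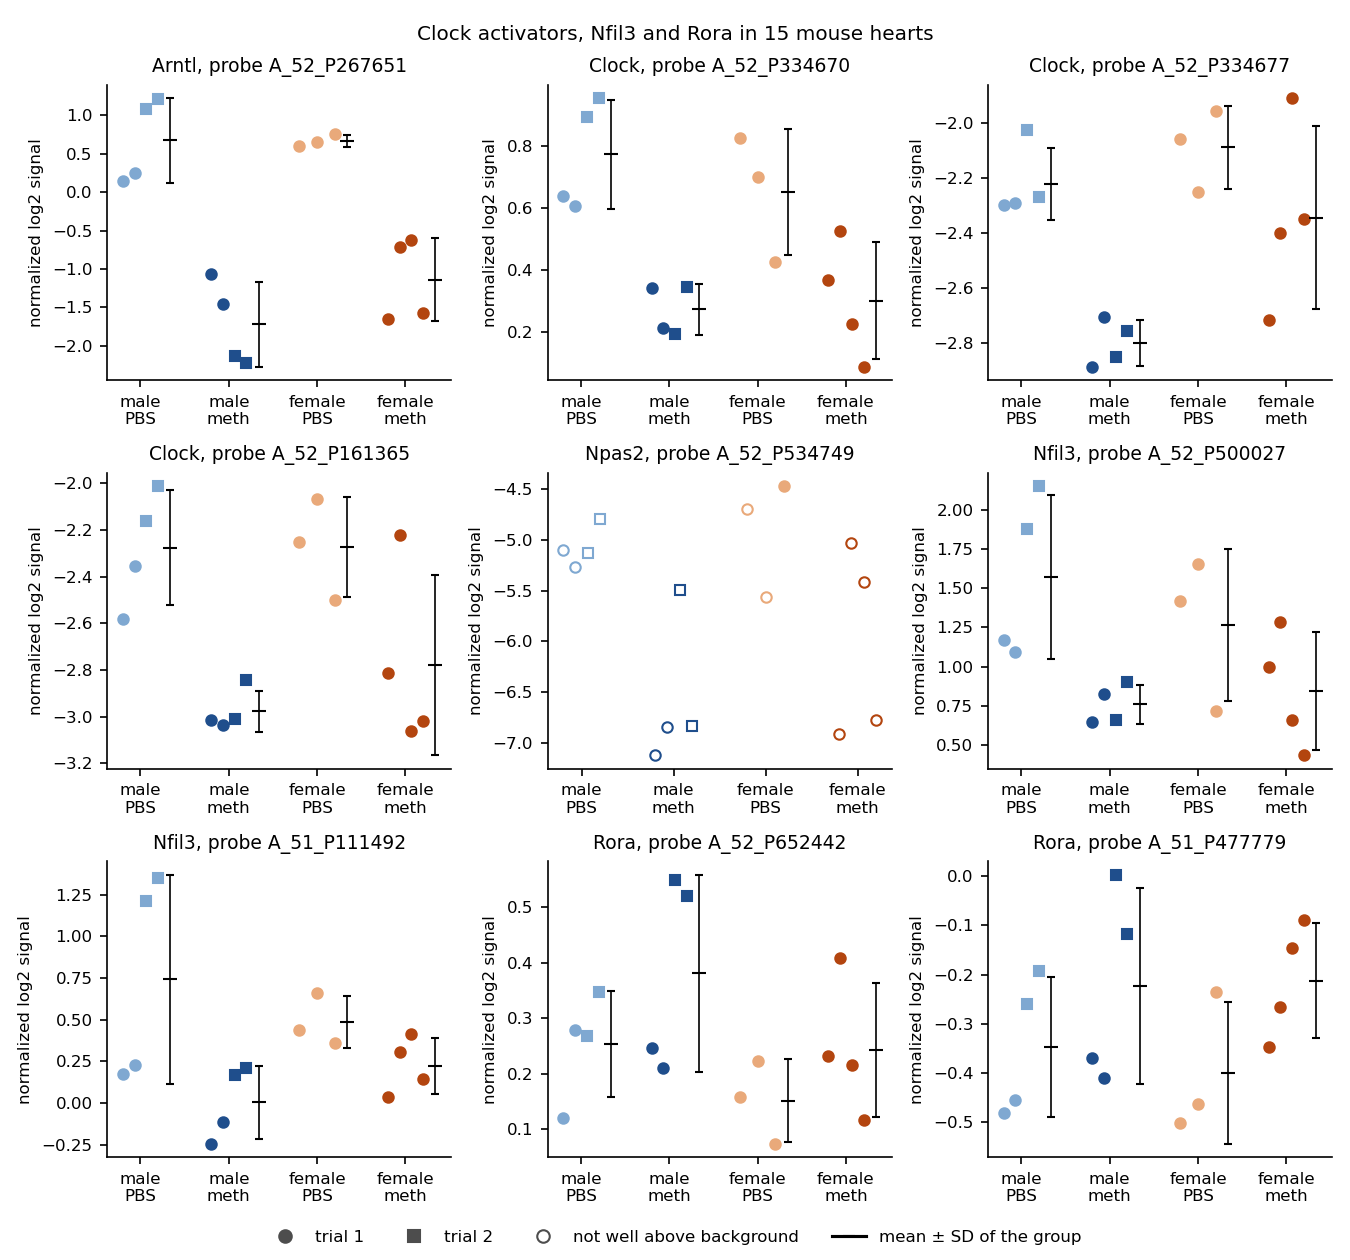
Normalized log2 signal (y axis, a scale of its own in each panel) of the 9 probes of Arntl, Clock, Npas2, Nfil3 and Rora in each heart, by sex and treatment (x axis), with circles for trial 1, squares for trial 2, open symbols for spots not well above background and black bars for the mean ± SD of a group. Arntl in the 4 male meth hearts lay between -2.22 and -1.06, below all male PBS hearts, and Npas2 was well above background in 1 heart.

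Of the 8 tested probes, 2 passed the threshold in males, those of Arntl and the second of Nfil3, where 1.11% of all tested probes did. In females 1 passed, that of Arntl, where 0.758% of all did. Over both sexes 4 passed, for Arntl, Nfil3 and a pair of Clock probes, where 2.65% of all did. Without an adjustment, 6 of the 8 had a p under 0.05 in males, 4 in females and 7 over both sexes, as did 12.8%, 11.0% and 15.3% of all tested probes. Every meth heart lay below every PBS heart for 5 of the 8 probes in males, against 5.17% of all probes, and for 1 of the 8 in females, against 5.92% of all probes. By gene, with the brightest tested probe of each of the 4 genes, the median log2 fold change was -0.66 in males and -0.38 in females, beside medians over all tested probes of -0.03 and 0.00065. Whole heart was measured, so fewer cells of a type and less RNA in each cell cannot be told apart.

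**Figure D2:**
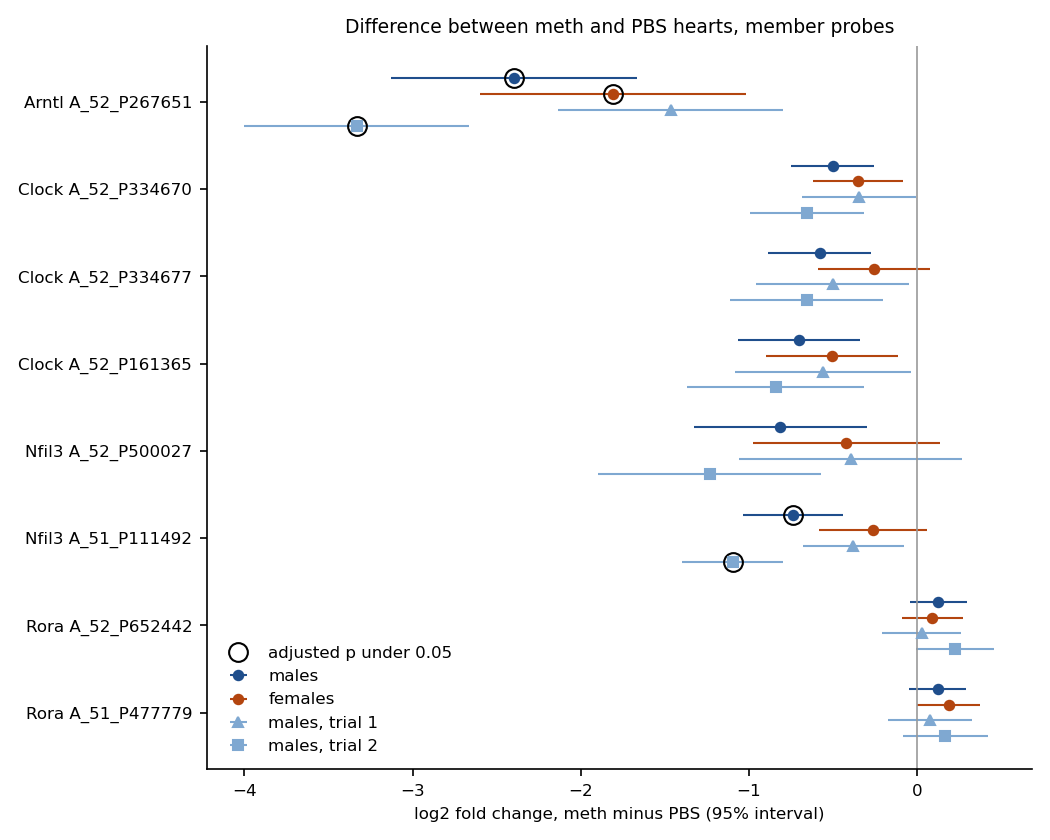
Log2 fold change, meth minus PBS, with its 95% interval (x axis) for the 8 tested probes (y axis), in males, in females and in males of each trial, with rings around differences past an adjusted p of 0.05. Arntl lay at -2.40 in males and -1.81 in females, the Clock and Nfil3 probes lay between -0.81 and -0.26 in the pooled males and the females, and the Rora probes lay above 0.

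The sexes were compared because the study set male against female hearts. The log2 fold change of males minus that of females was -0.59 for Arntl (95% interval -1.67 to 0.49, adjusted p = 0.782), -0.15 for Clock (95% interval -0.51 to 0.21, adjusted p = 0.842), -0.39 for Nfil3 (95% interval -1.15 to 0.36, adjusted p = 0.794) and 0.04 for Rora (95% interval -0.21 to 0.28, adjusted p = 0.954). None of the 8 probes passed with limma, 1 of them, the second of Nfil3, had an unadjusted p under 0.05 (8.7% of all tested probes did), and 0.138% of all tested probes passed. Between male and female PBS hearts, 0 of the 8 passed, where 0.48% of all tested probes did, and 0 had an unadjusted p under 0.05, against 15.2% of all. The Arntl difference there was -0.0011 (95% interval -0.87 to 0.87), and it joined male trials that lay on either side of the females. Male PBS hearts averaged 0.20 in trial 1 and 1.15 in trial 2, and female PBS hearts, all of trial 1, averaged 0.67. Within trial 1 both male PBS hearts lay below all female PBS hearts for Arntl. Between male and female meth hearts, 0 of the 8 passed where 2.62% of all did, and 2 had an unadjusted p under 0.05, against 18.5% of all tested probes. They were Clock probe A_52_P334677 (-0.49, adjusted p = 0.126) and the second Nfil3 probe (-0.58, adjusted p = 0.0706). On that Clock probe female meth hearts read -2.72 and -2.40 on slides 1 and 2, and -1.91 and -2.35 on slide 4. Male meth hearts read from -2.89 to -2.71. Slide 4 held no male heart and had a scan session of its own. The Nfil3 value rests on the trial covariate, since the plain means were 0.0058 in male and 0.22 in female meth hearts, with an exact permutation p of 0.20.

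The male trials differed in how far apart Arntl stood. In trial 1 the mean moved from 0.20 in PBS to -1.26 in meth hearts, a log2 fold change of -1.46 (SE 0.31, adjusted p = 0.0843), or 2.76-fold. In trial 2 it moved from 1.15 to -2.18, and Arntl fell by 3.33 (SE 0.31, adjusted p = 0.000733), or 10.1-fold. The trial 2 mean was thus higher in PBS hearts (by 0.95, adjusted p = 0.186 with limma) and lower in meth hearts (-0.92, adjusted p = 0.217). Neither difference passed the threshold. The log2 fold change of trial 2 minus that of trial 1 was -1.87 (SE 0.43, unadjusted p = 0.00111, adjusted p = 0.721). Nfil3 followed the same order, with -0.39 in trial 1 and -1.23 in trial 2 on the brighter probe, neither past the threshold. On the second probe it gave -0.38 in trial 1 and fell by 1.09 in trial 2 (adjusted p = 0.00647). The controls of that probe differed between the trials, with trial 2 PBS hearts 1.08 above those of trial 1 (adjusted p = 0.0149), and trial 2 meth hearts were 0.37 above those of trial 1 (adjusted p = 0.267). Between the PBS hearts of the trials 1 of the 8 probes was called, where 0.487% of all tested probes were. For Clock the values were -0.35 in trial 1 and -0.66 in trial 2, and for Rora 0.03 and 0.23. In trial 1, 0 of the 8 probes passed with limma, where 0.3% of all tested probes did. Without an adjustment 5 of the 8 had a p under 0.05 there, as did 7.3% of all tested probes. In trial 2, 2 of the 8 passed, where 0.356% of all did. The difference between the trials was called for none of the 8 and for 0% of all tested probes. For 2 of the 8, Arntl and the second Nfil3 probe, it had an unadjusted p under 0.05, as it did for 4.6% of all tested probes. Each of these groups holds 2 hearts. All trial 2 hearts were on slide 3, in a scan session of their own, and the trial 1 male hearts were on other slides in another session. Differences between the trials therefore cannot be told apart from differences between slides or scan sessions.

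Arrays were printed 4 to a slide, and every slide held both treatments, which allows meth and PBS hearts to be set side by side within a slide and sex. Arntl was lower in meth hearts in all 6 such sets. In males the differences were -1.21, -1.71 and -3.33, and in females -2.24, -1.37 and -1.85. Clock was lower in all 6 as well, from -0.66 to -0.17, and so was Nfil3, from -1.23 to -0.17. Rora was higher in 5 of the 6 on its brighter probe, from -0.07 to 0.23, and in all 6 on the other, from 0.04 to 0.20. With the slide as a fixed block in the limma fit, Arntl gave male and female values of -2.40 and -1.83 (adjusted p of 0.0141 and 0.0582). The same block gave an adjusted p of 0.0172 for Clock and of 0.0373 for Nfil3 in males, both past the threshold that they missed without it. Over both sexes Arntl, Clock and Nfil3 all passed with this block, with adjusted p of 0.00375, 0.00684 and 0.0311.

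**Figure D3:**
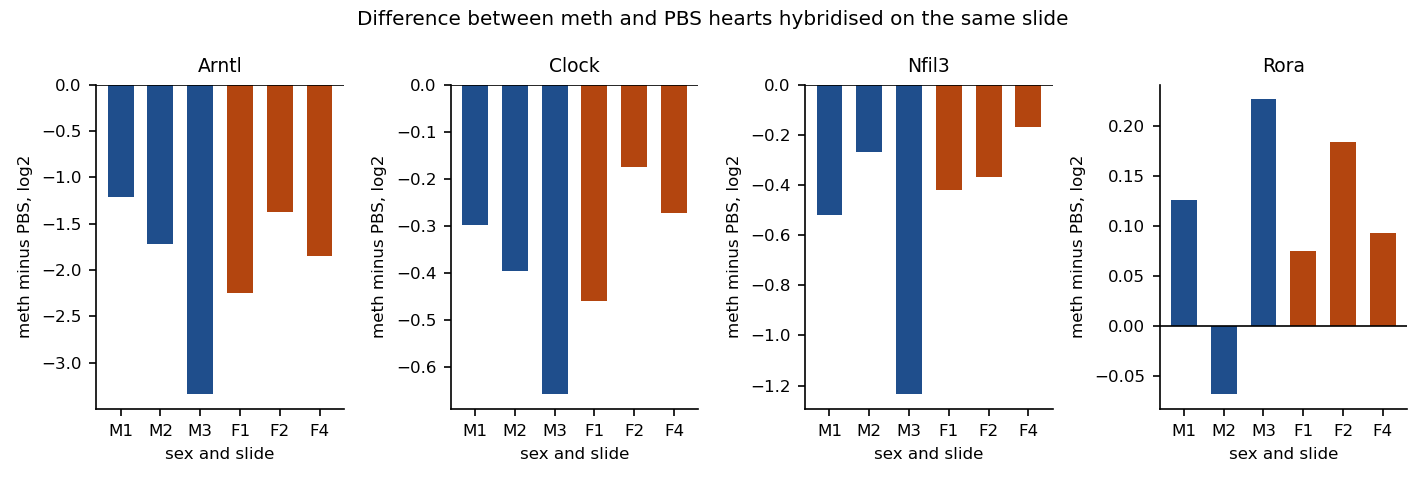
Difference between the meth and PBS hearts on a slide (y axis, log2, a scale of its own in each panel) for the brightest tested probe of Arntl, Clock, Nfil3 and Rora, with a bar for each sex (M male, F female) and slide number (x axis). All 6 bars point down for Arntl, Clock and Nfil3, and 5 of 6 point up for Rora.

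The other clock genes were counted from a list of 24 partners, sorted by role, of which all but Fbxl21 were tested. In males 8 of 23 rose and 0 fell, with a median log2 fold change of 0.44, and 13 had an unadjusted p under 0.05, against 12.8% of all tested probes. In females 2 of 23 rose and 0 fell, with a median of 0.47, and 12 had an unadjusted p under 0.05, against 11.0% of all. Over both sexes 12 rose and 0 fell. The male count was 5 without either meth heart or either PBS heart of trial 2, and the female count was 1 without female PBS replicate 2. Among all tested probes, 227 rose and 87 fell in males, 58 rose and 157 fell in females, and 319 rose and 432 fell over both sexes. In male trial 1, 2 of the 23 rose and 9 had an unadjusted p under 0.05, as did 7.3% of all tested probes. In trial 2, 8 of the 23 rose and 14 had one, as did 10.7% of all. The difference between the trials was called for none of the 23, and 9 had an unadjusted p under 0.05, against 4.6% of all tested probes. With the replicate number as a block, 0 of the 23 passed in females with limma, and 12 had an unadjusted p under 0.05, as did 4160 of all 28358 tested probes.

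Genes whose proteins repress the Arntl and CLOCK pair were for the most part higher in male meth hearts, opposite to Arntl. Of the 6 period, cryptochrome and Ciart genes, 5 rose in males and 1 in females, where 1.11% and 0.758% of all tested probes were called. Per2 rose by 1.97 in males (SE 0.24, adjusted p = 0.00187) and by 2.04 in females (SE 0.26, adjusted p = 0.00695). Ciart, a repressor of the same pair, rose in males by 3.18 (SE 0.40, adjusted p = 0.00246) and gave 2.03 in females (adjusted p = 0.0569), on a probe that was well above background in only 2 of 4 male PBS hearts, those of trial 1. In trial 1 alone Ciart rose by 1.88 (adjusted p = 0.00731). Per3 rose by 1.45 in males (adjusted p = 0.0149) and gave 1.00 in females (adjusted p = 0.117). By trial, Per2 rose by 1.29 in trial 1 and by 2.64 in trial 2, and Per3 gave 0.75 in trial 1 (adjusted p = 0.267) and rose by 2.14 in trial 2. Per1 rose by 1.08 in males (adjusted p = 0.0107) and Cry2 by 0.53 (adjusted p = 0.030), with 0.54 and 0.49 in females, and Cry1 gave 0.23 in males and 0.29 in females.

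The PAR bZIP activators DBP, TEF and HLF act at the D-box that NFIL3 represses. All 3 of their genes rose in males and 1 in females, where 1.11% and 0.758% of all tested probes were called. Dbp rose by 1.57 in males (SE 0.25, adjusted p = 0.0105) and gave 1.20 in females (adjusted p = 0.0660). In trial 1 it gave 0.76 (adjusted p = 0.0537), and in trial 2 it rose by 2.38 (adjusted p = 2.58e-05). Tef rose by 0.87 in males (adjusted p = 0.00576) and by 0.97 in females (adjusted p = 0.00830), and Hlf rose by 0.87 in males (adjusted p = 0.0320) and gave 0.82 in females (adjusted p = 0.0660). Of the 4 REV-ERB and DEC repressor genes, none passed with limma within a sex. Without an adjustment 4 had a p under 0.05 in males and 3 in females, against 12.8% and 11.0% of all tested probes. Over both sexes 3 of these 4 rose, where 2.65% of all tested probes were called. They were Nr1d2 by 0.60 (adjusted p = 0.0223), Bhlhe41 by 0.62 (adjusted p = 0.0305) and Bhlhe40 by 0.46 (adjusted p = 0.0368). Nr1d1, the gene of REV-ERB alpha, gave male and female values of 0.42 and 0.03 (adjusted p of 0.363 and 0.978).

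Arntl2, the paralog of Arntl, gave male and female values of -0.13 and 0.27 (adjusted p of 0.744 and 0.536). Rorb, a paralog of Rora, was not well above background on 12 of 15 arrays, the 8 male arrays among them, and no fold is given. The 6 tested kinase and ubiquitin ligase genes of the clock, which set the stability of the period and cryptochrome proteins, lay between -0.10 and 0.24 in males and between 0.0051 and 0.11 in females. None of these 6 had an unadjusted p under 0.05 in either sex with limma, and none was called. Of all tested probes, 12.8% in males and 11.0% in females had such a p. Usp2, a clock output gene, gave 0.56 in males and 0.75 in females and rose over both sexes by 0.66 (adjusted p = 0.0392).

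**Figure D4:**
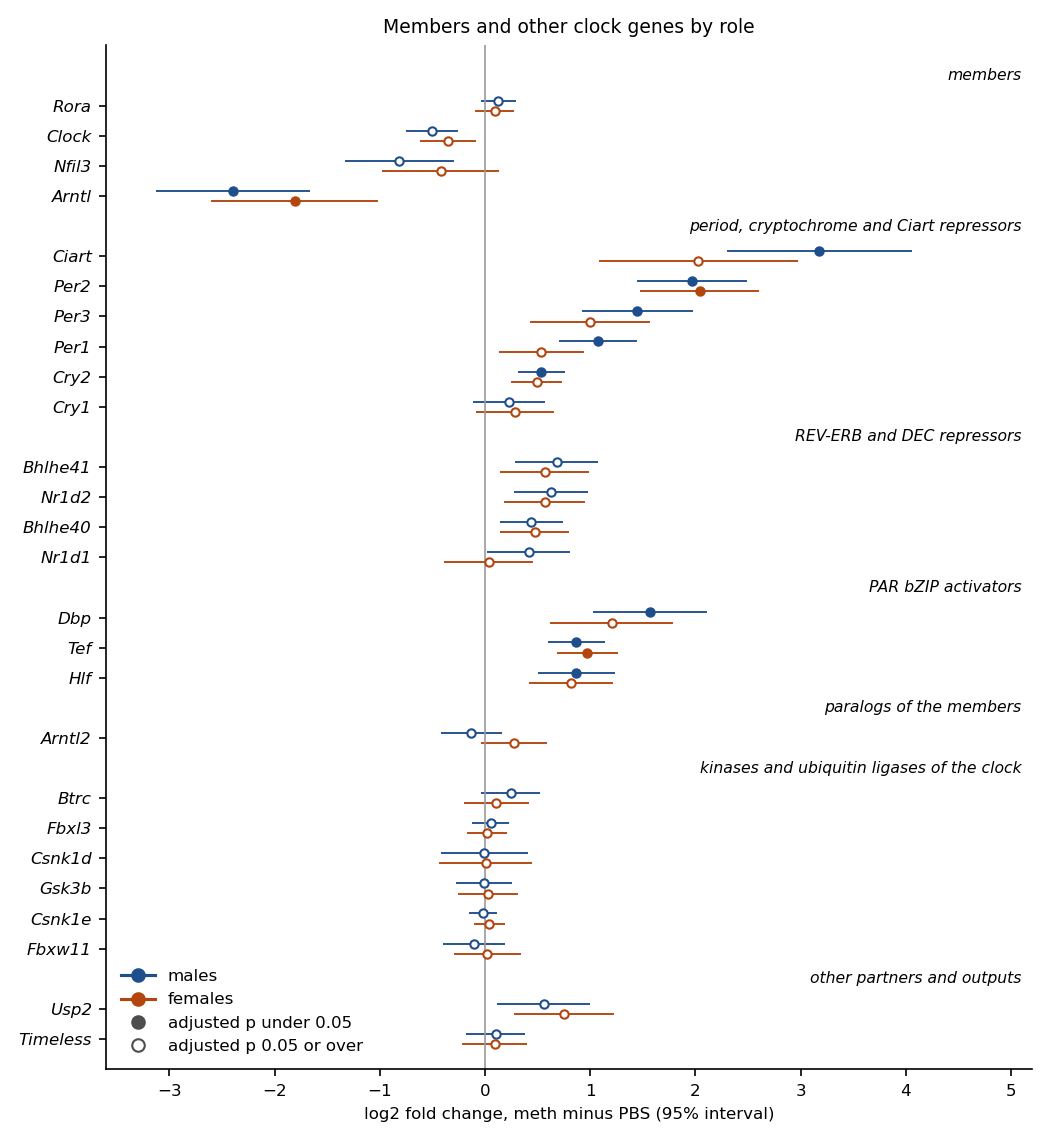
Log2 fold change, meth minus PBS, with its 95% interval (x axis) in males (blue) and females (orange) for the tested members and for 22 other clock genes grouped by role (y axis, Rorb left out), filled where the adjusted p is under 0.05. Arntl lay at -2.40 and -1.81, Per2 at 1.97 and 2.04, and the kinase and ubiquitin ligase genes within 0.25 of 0.

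The pattern of Arntl over the 15 hearts was compared with 12618 genes that were well above background on every array. The hearts share the treatment, so a coefficient over all 15 mostly reads the difference between meth and PBS, and it is given as a description. The most opposite genes were Mthfd1l, a mitochondrial folate enzyme (r = -0.97), Tspan4, a tetraspanin (r = -0.97), Per2 (r = -0.96), Per3 (r = -0.95) and Fam76a (r = -0.94). Mthfd1l rose by 1.57 in males (adjusted p = 0.00439) and by 1.35 in females (adjusted p = 0.0242), and Tspan4 by 0.88 (adjusted p = 0.00863) and 0.75 (adjusted p = 0.0362). The most alike were Lrrfip1 (r = 0.94), Aig1 (r = 0.94), Hspa12a, of the HSP70 family (r = 0.92), Leo1, of the PAF1 transcription complex (r = 0.91), and Spon2, a secreted matrix protein (r = 0.91). Spon2 fell by 1.83 in males (adjusted p = 0.00187), and in females it fell by 1.91 (adjusted p = 0.00663).

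Taken within groups, by deviations from the 4 group means, the coefficients with Arntl were -0.82 for Mthfd1l, -0.87 for Per3 and 0.85 for Spon2. Clock stood 27 from the top of the 12618 genes (r = 0.85, Spearman rho = 0.81, 0.44 within groups), Nfil3 stood 133 from the top (r = 0.72, rho = 0.64, 0.41 within groups) and Rora 11488 (r = -0.44, rho = -0.24, -0.07 within groups). From the other end of the order, Tef stood 6, Cry2 12, Dbp 18, Per1 24, Bhlhe41 26, Hlf 28 and Nr1d2 31. Other repressors stood farther in, Bhlhe40 at 390 (r = -0.61), Cry1 at 1570 (r = -0.37, 0.04 within groups) and Nr1d1 at 1740 (r = -0.34, 0.0078 within groups). The male groups mix trials that differ in level, which also enters the values within groups.

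**Figure D5:**
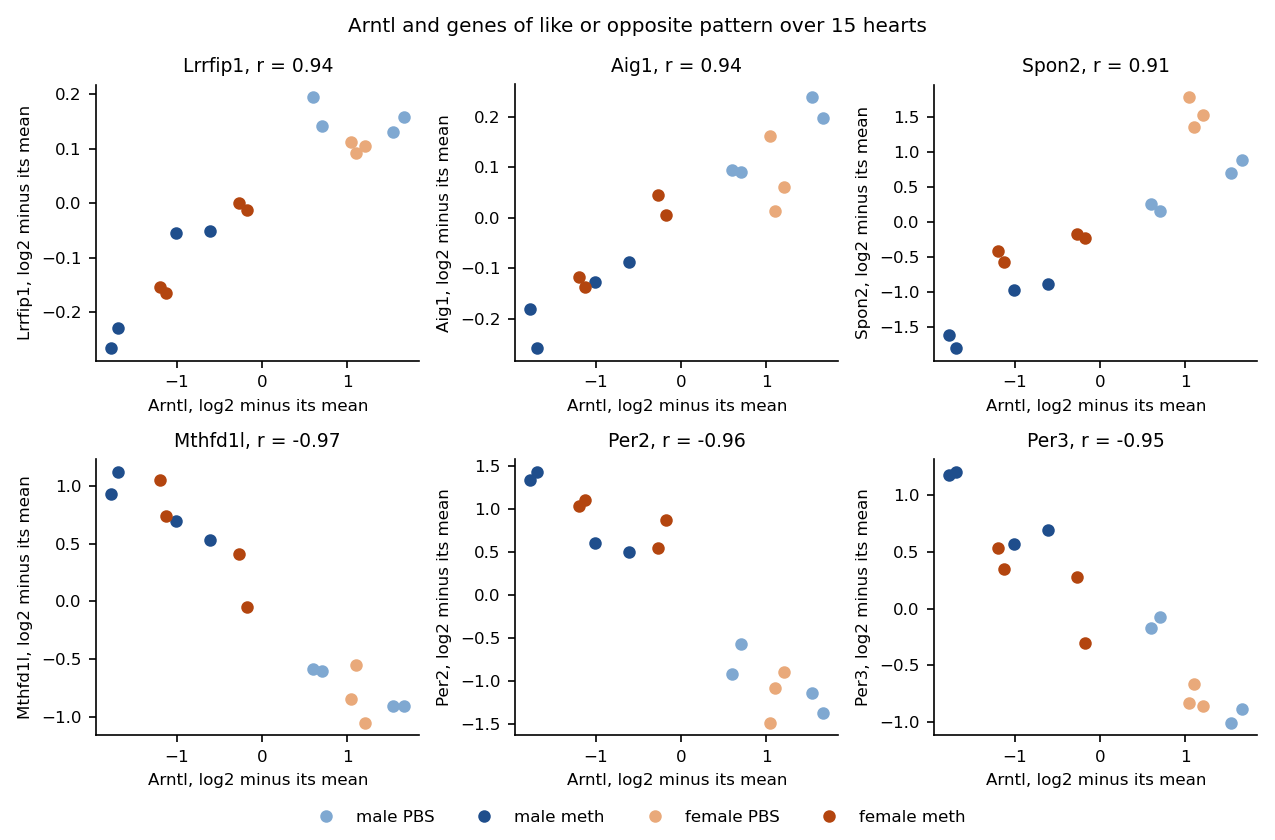
Arntl (x axis) against Lrrfip1, Aig1, Spon2, Mthfd1l, Per2 and Per3 (y axes), each as log2 signal minus the gene's own mean, with a point for each of 15 hearts coloured by group. Meth hearts lie at the left of every panel, and Pearson r runs from 0.91 to 0.94 in the upper row and from -0.97 to -0.95 in the lower row.

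The likeness between Clock and Nfil3 depended on the probe. Their brightest probes had r = 0.93 over the 15 hearts (Spearman rho = 0.92) and 0.91 within groups. The brightest Clock probe and the second Nfil3 probe had r = 0.76, below the 0.85 between that Clock probe and Arntl. Clock probe A_52_P334677 and the brighter Nfil3 probe had r = 0.36, and -0.19 within groups. By the brightest probes, Clock led the order of Nfil3, followed by Pja1, a ubiquitin ligase (r = 0.93), and Kdr, a VEGF receptor of endothelium (r = 0.93). For Clock the most alike were Fam222a (r = 0.95), Leo1 (r = 0.94), Kdr (r = 0.93), Nfil3 and Kcna1, a potassium channel (r = 0.93). The most opposite to Clock were Ephx1, the microsomal epoxide hydrolase (r = -0.94), Bmp4 (r = -0.94), Tchp (r = -0.94), Acap2 (r = -0.93) and Zdhhc12 (r = -0.93). Fam222a fell in males by 1.03 (adjusted p = 0.0490) and Ephx1 rose in males by 0.58 (adjusted p = 0.0322), and neither passed in females. The genes most like Rora were Tbl1xr1 (r = 0.87), Tnrc6c (r = 0.87) and Ddx6, an RNA helicase (r = 0.86), none of which passed in either sex.

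Arrays were even in brightness apart from slide 4. The 75th percentile of signal ran from 307 to 403 on slides 1 to 3 and from 438 to 589 on slide 4, which held female meth replicates 3 and 4 and female PBS replicate 3, and 61.3% to 71.4% of probes were well above background. All 7 cardiomyocyte markers were tested, and none was called or had an unadjusted p under 0.05 in either sex with limma, with summed levels of 2891 to 4233 times the array's 75th percentile. Markers of other tissues did move. Of all tested probes, 1.11% were called in males and 0.758% in females, and 12.8% and 11.0% had an unadjusted p under 0.05 with limma. All 7 airway secretory markers on the array rose in males, with summed levels of 38.9 to 201 in male meth and 0.498 to 0.604 in male PBS hearts. In females 2 of the 7 rose, and the summed levels overlapped, at 1.27 to 4.31 in meth and 1.67 to 3.33 in PBS hearts. Of 4 tested white fat markers, 1 rose in males and none passed in females, and 3 in males and 4 in females had an unadjusted p under 0.05. Their summed levels were 29.8 to 145 in male meth, 15.6 to 48.4 in male PBS, 57.2 to 88.3 in female meth and 24.0 to 30.1 in female PBS hearts. The endothelial sum, which includes Kdr, was 21.04 to 24.0 in male meth, 22.3 to 28.5 in male PBS, 20.9 to 24.0 in female meth and 23.7 to 28.0 in female PBS hearts. None of its 4 markers was called, and 1 in each sex had an unadjusted p under 0.05. Among alveolar markers 2 of 4 tested rose in males and 1 fell in females, and Sftpb stayed near background on every array. The alveolar sums overlapped, at 0.511 to 1.43 in male meth and 1.19 to 1.34 in male PBS hearts. In females they were 1.28 to 1.80 in meth and 1.38 to 1.89 in PBS hearts. Of 5 tested ciliated airway markers, 1 rose in males. None of the 16 tested brown fat, red blood cell, leukocyte and fibroblast markers was called with limma, and 0 in males and 2 in females had an unadjusted p under 0.05. The part of these other tissues in the values of the clock genes was not tested.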

How the data were processed

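Heart RNA of 15 mice was measured on 1-colour Agilent arrays. The authors scanned the slides and extracted an intensity for each spot with Feature Extraction (9.1 in the submitters' processing notes, 10.5.1.1 in the headers). The deposited intensities are background-subtracted without normalization between arrays. A further table that the authors deposited holds log2 values, equal to the log2 signal plus a constant for each array, and served as an alternative. Control spots were left out, outlier spots were set to missing, spots of a probe were averaged on the log2 scale, and the 75th percentile of each array was subtracted. No spot was saturated. Symbols were taken through RefSeq accessions (GRCm38.p6 table), which named 26918 of 41174 probes.

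The fit took the 28358 probes that exceeded background clearly on 3 or more arrays, and was made in R 4.3.3 with limma 3.58.1 (lmFit, eBayes) over all 15 arrays, with 4 groups of sex and treatment and the trial as covariate, and with male groups split by trial for the trial values. P-values are two-sided with Benjamini-Hochberg adjustment over all tested probes, threshold 0.05. A mouse is a replicate, and p-values measure the spread between mice around the fitted groups. In the main fit the trial term is the same for both treatments, so a male response that differs between trials adds to that spread. The spread is shared by the male, female and sex comparisons. Exact permutation tests enumerated every regrouping. A gene is given by its brightest tested probe with the other probes beside it, other clock genes are named by role, and the genes of like pattern are the 5 highest and 5 lowest r for Arntl and Clock and the 3 highest for Nfil3 and Rora. The members, lists and tests were chosen with earlier results of these data known. The fit was tested on simulated data. 1 further gene of the clock list is not reported here.

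Same-numbered female meth and PBS arrays deviated together from their group means (r = 0.30, 0.44 and 0.66 over 23808 probes). From means over both trials, those of males had r of 0.33 and 0.27 in trial 1 and of 0.26 and 0.40 in trial 2. Taken within a trial, they did not deviate together (r = -0.085 in trial 1 and 0.0099 in trial 2). With 2 hearts in a group, both pairs of a trial give the same value within it. The female means span slides 1, 2 and 4. Same-numbered meth and PBS arrays share a slide in both sexes. The labels number the mice without pairing them, and outside slide 3 a pairing of mice was not told apart from a shared slide. Slide 3 held all trial 2 male hearts, so same-numbered hearts shared it no more than others did. There r within the trial was 0.0099. Tried as alternatives were normexp background correction (offset 50, on median pixel signals, as no mean pixel signal is used here), quantile normalization, a shift by the median, the authors' table, no filter, a filter on all 15 arrays, a floor at the lowest signal well above background, no trial term, the trial from the source name (which puts female meth replicates 3 and 4 and female PBS replicate 3 in trial 2), slide or scan session as a block, a replicate block, arrays of a sex or of trial 1 alone, each array left out, other probes, and the methods' t-test. A transcript below background has only a bound, and the number of arrays limits precision. Figures used matplotlib 3.10.9 under Python 3.11.15.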

Additional observations from a re-analysis of the deposited data

Results flagged for a closer look

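Of 27 sets of 4 hearts in which the highest and lowest reading were compared with the rest, 2 held a reading that stood apart, both on dim Clock probes. About 1 in 20 such sets would by chance. On probe A_52_P334677, male PBS replicate 1 of trial 2 read -2.03 and stood above the other 3 male PBS hearts (gap over range 0.889, past Dixon's critical value). On probe A_52_P161365, male meth replicate 2 of trial 2 read -2.85 and stood above the other 3 male meth hearts (gap over range 0.868). Neither heart stood apart on the brightest Clock probe.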

How the results depend on the processing

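The direction of Arntl, Clock, Nfil3 and Rora within each sex, and over both, was kept in every alternative run. The call for Arntl over both sexes was kept in all 29 alternatives, and its male call in 27 of 32, including each fit with an array left out (-2.66 to -2.18). Of the 4 genes, 1 passed in males, 3 with the slide as a fixed or random block or the scan session as a block, and 0 with the replicate block (Arntl -2.40, adjusted p = 0.0581), with male arrays alone, with trial 1 alone (Arntl -1.46, adjusted p = 0.194) and with either form of the methods' t-test. Leaving out an array gave 1 to 2, Clock being added without female meth replicate 2 (adjusted p = 0.0483) or female PBS replicate 3 (adjusted p = 0.0482). In females 1 passed, and 0 with normexp, quantile normalization, a shift by the median, no filter, no trial term, the slide as a fixed block, the replicate block (-1.67), female arrays alone and both t-tests, and 0 to 1 with an array left out. Over both sexes 2 passed, and 1 with normexp (Clock -0.36, adjusted p = 0.0511), the median shift (Clock -0.40, adjusted p = 0.0515) and trial 1 alone (Clock -0.35, adjusted p = 0.236), and 1 to 2 with an array left out. The replicate block changed no call of a member other than those of Arntl within each sex.

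The difference between the sexes, never past the threshold, changed sign with trial 1 alone for Arntl (0.35), Clock (0.0034), Nfil3 (0.024) and Rora (-0.063), and for Rora also with its other probe (-0.065), the median shift (-0.072), the replicate block (-0.0060) and without female meth replicate 4 (leaving out an array gave -0.0060 to 0.091). The causes were not tested.

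The number of probes past the threshold ranged from 0 with the paired t-test to 692 with the slide as a random block in males (main 314), from 0 with both t-tests to 508 with the scan session as a block in females (main 215), and from 111 with normexp to 1507 with the scan session over both sexes (main 751). At the methods' threshold without adjustment, the paired t-test gave 4313 probes in males and 2817 in females and the unpaired form 3769 and 2350, and after adjustment 0 and 0, and 18 and 0. Partners called higher ranged from 0 with the t-tests to 10 with the slide or scan session as a block in males, and from 0 with the t-tests and the replicate block to 6 in females. Signal over background limits Npas2, which has only a bound.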
